A study of Homo sapiens with 12 samples.

Results

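SOX proteins are transcription factors that bind DNA through a domain related to that of SRY. The 10 SOX genes described here, SOX1, SOX2, SOX3, SOX4, SOX8, SOX9, SOX11, SOX12, SOX14 and SOX21, were chosen by name as the family members best known from neural progenitors and their first neurons, out of 25718 genes in the count tables. Each was listed with 1 RefSeq transcript. SOX1, SOX2 and SOX3 form the SOXB1 group, which keeps neural progenitors undifferentiated. SOX14 and SOX21 form the SOXB2 group, which acts against SOXB1 on shared target genes. SOX4, SOX11 and SOX12 form the SOXC group, which switches on neuronal genes in committed cells, and SOX8 and SOX9 form the SOXE group, which serves neural stem cells and the glial lineage. In the ventral neural tube SOX1 is known to be absent from the floor plate, the ventral midline tissue that later gives rise to dopamine neurons in the midbrain.

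Cultures of H9, an established line of human embryonic stem cells, gave 12 samples, with 3 replicates in each of 4 groups. All cells carried a lentiviral vector, given at a multiplicity of infection of 50, that makes miR-10a or miR-10b, microRNAs of the same family, when doxycycline is added. All were patterned for 14 days towards ventral midbrain with SHH at 200.0 ng/ml and a WNT-activating compound, and in 1 group per vector doxycycline was present from day 11 to day 14. The question was which transcripts move when miR-10, a microRNA of hindbrain and spinal cord, is made in midbrain cells. The vectors also carried a GFP reporter. Controls carried the same vector as the doxycycline samples they were set against. Doxycycline itself, the microRNA and GFP therefore cannot be told apart. The cells were transduced as a population and not sorted, the labels do not say whether replicates were separate cultures, and p-values therefore measure the spread between these samples, which may be technical. RNA came from whole cultures, in which fewer cells of a type and less RNA per cell cannot be told apart.

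Levels are in CPM, for which each library's counts were divided by their sum and brought to an equal total, or in CPM per kilobase of transcript where genes are compared with each other. Total counts ranged from 10545487 to 14165426, and for each vector the totals of all controls exceeded those of all doxycycline samples. The precursors followed the labels: MIR10A rose from 0.999 ± 0.363 to 723.7 ± 10.8 CPM (SD, n = 3) with the miR-10a vector, and MIR10B from 3.55 ± 0.807 to 2619 ± 67.5 CPM with the miR-10b vector. In replicate pairs the chi-square of the counts divided by its degrees of freedom was 1.22 to 1.93, except for 3.17 and 4.11 in the pairs that held replicate 2 of the doxycycline group of miR-10b. Calls of members that depend on this sample are given with and without it.

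The labelled cell type was checked against marker genes. Neural progenitor markers summed to 11171 to 12971 CPM, with NES, the intermediate filament nestin, between 4341 and 4835 CPM in all groups except the miR-10b controls, where it was 5139 to 5188 CPM. The 7 pluripotency markers summed to 103 to 156 CPM, nearly all of it from DPPA4, a factor of pluripotent cells counted at 102 to 155 CPM. ZFP42 and PRDM14, with 1 transcript each, had 0 to 2 counts per sample. POU5F1, NANOG, TDGF1 and DNMT3B were listed with 0 to 21 counts. Markers of mesendoderm summed to 1.14 to 1.99 CPM and those of neural crest to 6.16 to 9.11 CPM. Among the latter ERBB3, a neuregulin receptor, was counted at 2.71 ± 0.216 and 4.08 ± 0.236 CPM without and with doxycycline for miR-10b, and at 3.52 ± 0.911 and 3.97 ± 0.483 CPM for miR-10a. Its average log2 fold change of 0.38 (SE 0.13) passed in edgeR (adjusted p 0.044), but not with TMM scaling (0.054), with counts summed over transcripts (0.056) or in 9 of the 12 fits that left out 1 sample (0.063 to 0.12). Floor plate markers summed to 3682 to 5721 CPM, and 9 of 9 were measured above the filter. PAX6 was listed with a mean of at most 3 counts in each group. Like POU5F1, NANOG, TDGF1 and DNMT3B it has several transcripts. Such genes are undercounted in these data, so that the levels of these 5 are unknown. Some markers of mesendoderm and neural crest also have several transcripts, so that their sums may be too low.

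MiR-10a-5p, which the miR-10a vector delivers, and the members' possible pairing with it are shown first. The miR-10b vector makes miR-10b instead, whose mature sequence is not shown and was not used in the search. The mature miR-10a-5p, read from RefSeq, matched GRCh37 at chr17:46657266-46657288 on the minus strand. Capitals mark its seed, bases 2 to 8, which pairs with a target.

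miR-10a-5p: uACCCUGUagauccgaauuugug

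The complement of the seed was searched for on the sense strand of the longest annotated 3′UTR of each gene, as the full form ACAGGGTA and as 3 forms that lack its first base, its last base or both, with each place in a UTR counted once, under its longest form. None of the 10 members held ACAGGGTA, which was found in 2.59% of the 9258 tested genes whose 3′UTR is annotated, and none held CAGGGTA, which was found in 6.96%. SOX1 had 2 places with ACAGGGT, a form held by 14.3% of these genes. The 6-base form CAGGGT, held by 29.4% of them, occurred in 3 members, with 2 places in SOX3, 2 in SOX11 and 4 in SOX12. At least 1 of the 4 forms was thus held by 4 of the 10 members, near the 40.7% of these genes that held at least 1. SOX2, SOX4, SOX8, SOX9, SOX14 and SOX21 had none of the 4 forms. The places in SOX1 and SOX3, the members with the largest differences between cultures, are printed here in the sense of the transcript with the match in capitals. They lay in GRCh37 at chr13:112725766-112725792 and chr13:112726004-112726020 for SOX1 and, on the minus strand, at chrX:139585559-139585584 and chrX:139585193-139585218 for SOX3, all in the 3′UTR of the only exon.

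SOX1, first place: taaaaatatcACAGGGTgggggcaagg

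SOX1, last place: ttcccaaatcACAGGGT

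SOX3, first place: tcctgagttcCAGGGTtattctgtta

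SOX3, last place: tactttgtttCAGGGTtttcaagctt

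The second sequence of SOX1 stops where the annotated UTR ends. A match of letters is a description of the transcript and does not show that it is bound.

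Per kilobase of transcript SOX2 was the most abundant of the 10, with a mean of 440.0 CPM per kilobase over the 12 samples (405 to 481). This was above 99.2% of the 11451 tested genes, a rank that may be too high because genes with several transcripts are undercounted. SOX11 followed with 251 (237 to 273) and SOX4 with 217 (206 to 231), so that 2 SOXC genes stood next to the main SOXB1 gene. SOX12 had 94.2 (87.6 to 111) and SOX21 86.4 (82.2 to 93.1), and their ranges over the 12 samples overlapped. SOX3 had 55.9 CPM per kilobase with a wide range of 32.8 to 77.5. SOX9 had 13.9 (12.9 to 14.8), SOX1 8.70 (4.96 to 13.2) and SOX8 7.32 (5.48 to 9.53), and SOX1 overlapped both of its neighbours. SOX14 was at 0.225 (0.122 to 0.511). All other neighbours in this order were separated in every sample.

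Summed by group on the same scale, SOXC transcripts reached 549 to 579 CPM per kilobase and SOXB1 transcripts 481 to 520, while SOXB2 reached 82.3 to 93.4 and SOXE 18.8 to 23.9. The sum of all 10 genes lay between 1145 and 1205 CPM per kilobase in every sample. Within SOXB1, SOX2 alone accounted for most of the sum.

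**Figure D1:**
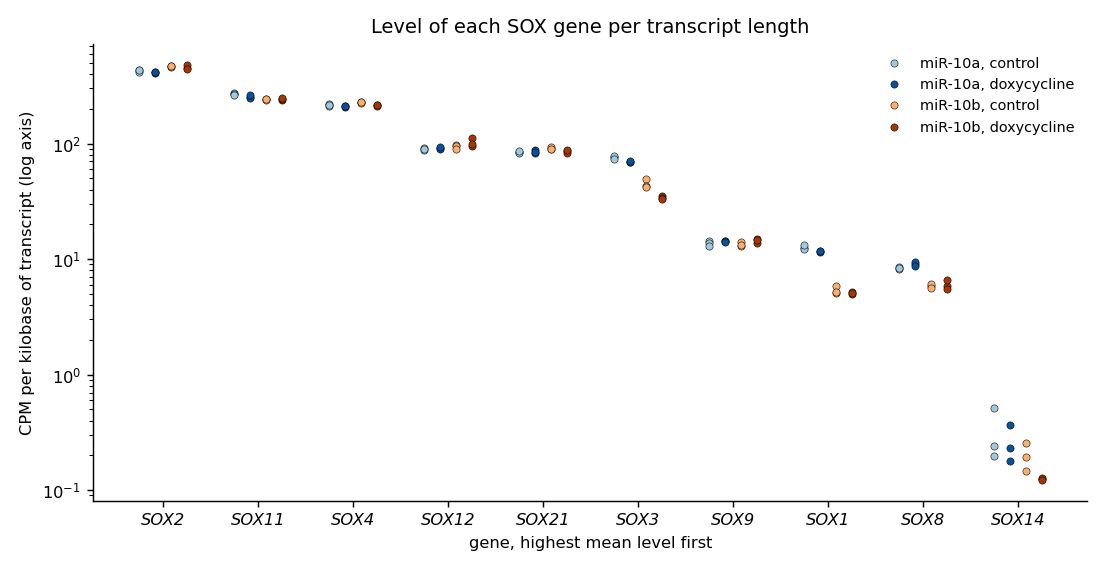
Level of each of the 10 SOX genes in CPM per kilobase of transcript on a log axis, with 1 point per sample and the genes in order of their mean. SOX2 is highest with a mean of 440.0 and SOX14 lowest with 0.225, and SOX1 and SOX3 spread more widely between groups than SOX2, SOX4 and SOX11.

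SOX2, on chr3:181429713-181432224 in GRCh37 (plus strand, 1 exon, transcript NM_003106), is the pluripotency and neural stem cell factor of the group. It measured 1080.0, 1043 and 1078 CPM in replicates 1, 2 and 3 of the miR-10a controls and 1018, 1047 and 1036 CPM with doxycycline. With the miR-10b vector it measured 1156, 1183 and 1169.9 CPM in the controls and 1130.2, 1209 and 1113 CPM with doxycycline. The groups of each vector overlapped. The log2 fold change was -0.05 for miR-10a (SE 0.031, edgeR adjusted p 0.62) and -0.02 for miR-10b (SE 0.030, adjusted p 0.67). Neither passed the threshold of 0.05, nor did the average of both vectors (-0.03, SE 0.022, edgeR adjusted p 0.32). Without replicate 2 of the doxycycline group of miR-10b the average was -0.05 and passed (edgeR adjusted p 0.043).

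SOX3, on chrX:139585150-139587234 in GRCh37 (minus strand, 1 exon, transcript NM_005634), had the largest log2 fold change of the members with doxycycline in the miR-10b cultures and on average, but not in the miR-10a cultures. It is a SOXB1 factor of early neural tissue and of the hypothalamus. Cultures with the miR-10b vector had 102, 89.8 and 86.5 CPM without and 72.4, 70.0 and 68.1 CPM with doxycycline. All 3 doxycycline samples lay below all 3 controls. SOX3 fell by 24.1% in this comparison, a log2 fold change of -0.40 (SE 0.051, edgeR quasi-likelihood test, adjusted p 3.1e-07). In the miR-10a cultures it was at 158, 161 and 151 CPM without and 143, 143 and 147 CPM with doxycycline, again without overlap. There the log2 fold change was -0.12 (SE 0.044, edgeR adjusted p 0.25), which did not pass.

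The doxycycline effect on SOX3 differed between the vectors by -0.28 on the log2 scale (SE 0.067, edgeR adjusted p 0.017). Averaged over both vectors it was -0.26 (SE 0.034, edgeR adjusted p 5.5e-07). The fall with miR-10b passed the threshold when any of the 12 samples was left out, with log2 values from -0.45 to -0.33. The difference between vectors did not pass without replicate 3 of the miR-10a controls (-0.26, edgeR adjusted p 0.062) or without replicate 1 of the miR-10b controls (-0.21, adjusted p 0.092).

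SOX1, on chr13:112721463-112726020 in GRCh37 (plus strand, 1 exon, transcript NM_005986), is the SOXB1 factor taken as the marker of neuroepithelium. It measured 51.7, 50.6 and 54.2 CPM in the miR-10a controls and 46.9, 48.7 and 48.0 CPM with doxycycline. These groups did not overlap, yet the log2 fold change of -0.12 (SE 0.057, edgeR adjusted p 0.41) did not pass. In the miR-10b cultures SOX1 was at 24.2, 21.0 and 21.3 CPM without and 20.4, 21.2 and 20.9 CPM with doxycycline. The groups overlapped, and the log2 fold change was -0.09 (SE 0.075, edgeR adjusted p 0.48). All 6 samples of the miR-10b vector thus lay below all 6 of the miR-10a vector, whether or not doxycycline was present.

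Of the SOXB2 genes, SOX21, on chr13:95361876-95364799 in GRCh37 (minus strand, 1 exon, transcript NM_007084), promotes exit from the progenitor state. It measured 212, 207 and 215 CPM in the miR-10a controls and 219, 208 and 214 CPM with doxycycline, which overlapped. With miR-10b it measured 224, 234 and 227 CPM without and 217, 206 and 221 CPM with doxycycline. The latter groups did not overlap, but the log2 fold change of -0.09 (SE 0.036, edgeR adjusted p 0.094) did not pass with libraries scaled to the total count. It passed with TMM scaling (-0.11, edgeR adjusted p 0.044) and with DESeq2 (-0.11, adjusted p 0.043). SOX21-AS1, the neighbouring antisense RNA whose exons do not overlap those of SOX21, had a log2 fold change of 0.08 for miR-10a and of 0.01 for miR-10b (edgeR adjusted p 0.54 and 0.90).

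SOX14, on chr3:137483157-137485176 in GRCh37 (plus strand, 1 exon, transcript NM_004189), a factor of later interneurons, had 3 to 13 counts per sample and was not tested. It had 5 to 13 counts in the miR-10a controls, 4 to 9 with doxycycline, 4 to 7 in the miR-10b controls and 3 in each miR-10b doxycycline sample. The last group had lower CPM than its controls in all samples, but 3 counts is the floor taken for detection, and no fold change is given.

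**Figure D2:**
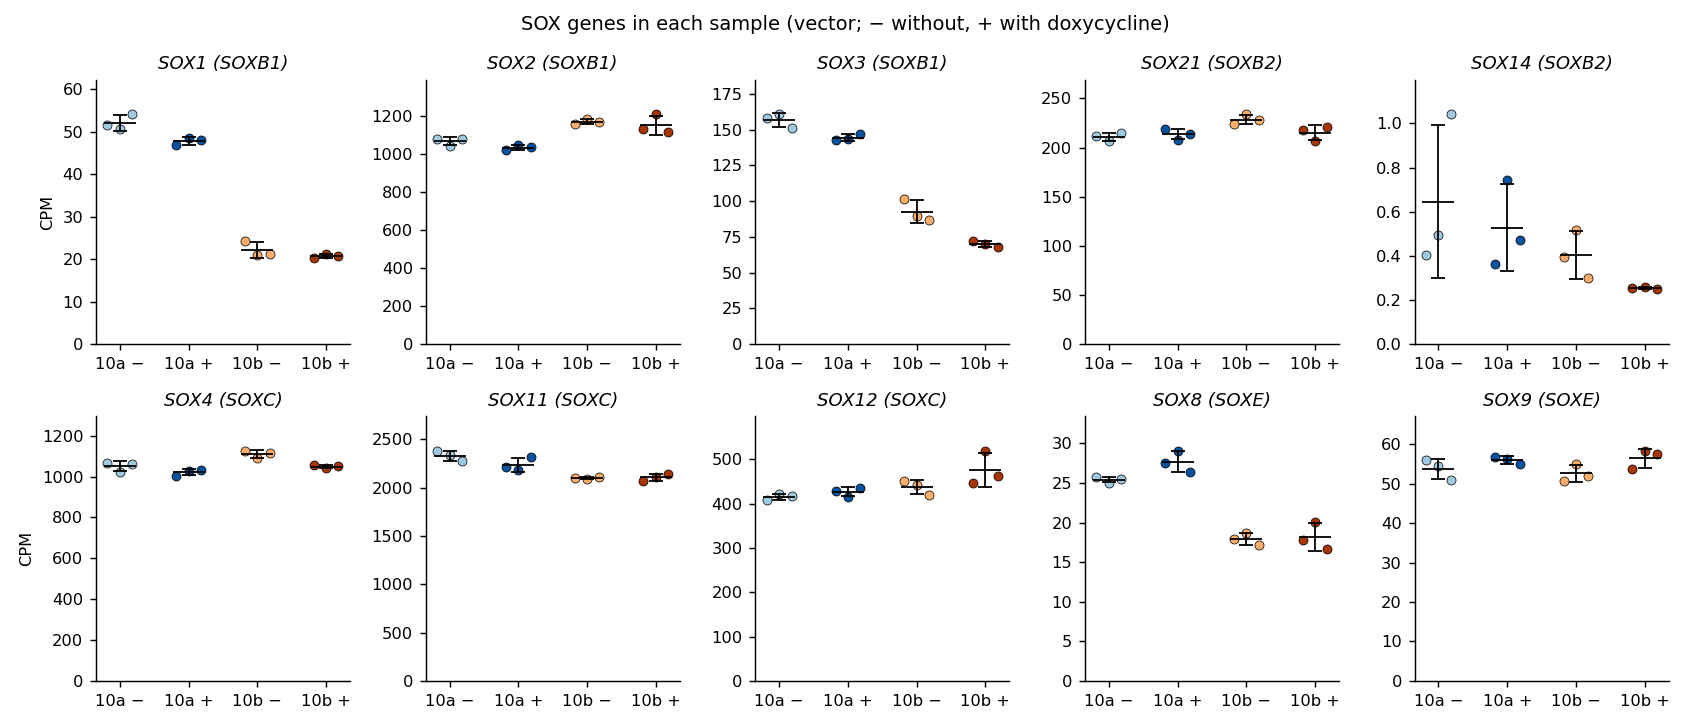
CPM of the 10 SOX genes in each of the 12 samples, with 1 panel per gene, the 4 groups along the x axis, points for replicates, a horizontal line for the mean of 3 and a vertical bar for its SD. SOX3 falls from 92.6 to 70.2 CPM with doxycycline in the miR-10b cultures, while SOX1 and SOX8 differ mainly between the vectors.

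The SOXC genes, which act in cells leaving the progenitor state, moved little. SOX4, on chr6:21593982-21598850 in GRCh37 (plus strand, 1 exon, transcript NM_003107), measured 1066, 1022 and 1061 CPM in the miR-10a controls and 1005, 1029.7 and 1031 CPM with doxycycline, with a log2 fold change of -0.04 (SE 0.028, edgeR adjusted p 0.67). The groups overlapped. In the miR-10b cultures SOX4 measured 1126, 1090.3 and 1115 CPM without and 1056, 1040.5 and 1050.2 CPM with doxycycline. These groups did not overlap, and SOX4 fell by 5.52%, a log2 fold change of -0.08 (SE 0.028, edgeR adjusted p 0.045). This call was close to the threshold. It remained only when replicate 2 of the miR-10a controls was the sample left out, and the other 11 fits without 1 sample gave edgeR adjusted p from 0.052 to 0.14. It also did not pass in a fit of the 6 miR-10b samples alone (adjusted p 0.11) or without a filter on low counts (adjusted p 0.067). An annotated gene on the opposite strand overlaps the exon of SOX4, and whether the counting used strand is not given in the sources used here.

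SOX12, on chr20:306196-310868 in GRCh37 (plus strand, 1 exon, transcript NM_006943), was higher with miR-10b. It measured 451, 441 and 420.1 CPM in the controls and 446, 519 and 462 CPM with doxycycline. The log2 fold change was 0.12 (SE 0.039, edgeR adjusted p 0.032), although the groups overlapped and replicate 2 of the doxycycline group stood above the other 2. Without that replicate the value was 0.05 (edgeR adjusted p 0.32). It also did not pass without replicate 2 (adjusted p 0.069) or replicate 3 (adjusted p 0.19) of the miR-10b controls, with TMM scaling (0.10, adjusted p 0.067), with DESeq2 (0.099, adjusted p 0.11) or in a fit of the 6 miR-10b samples alone (adjusted p 0.082). In the miR-10a cultures SOX12 measured 408, 422 and 416 CPM without and 429, 415 and 435 CPM with doxycycline, with a log2 fold change of 0.04 (SE 0.04, edgeR adjusted p 0.80).

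SOX11, on chr2:5832516-5841517 in GRCh37 (plus strand, 1 exon, transcript NM_003108), had the highest CPM of the 10 and the longest transcript. It measured 2379.7, 2333 and 2273 CPM in the miR-10a controls and 2209, 2181 and 2315 CPM with doxycycline. With miR-10b it measured 2102, 2088 and 2106 CPM without and 2065, 2108 and 2145 CPM with doxycycline. Both pairs of groups overlapped, and the log2 fold changes were -0.06 for miR-10a (SE 0.028, edgeR adjusted p 0.43) and 0.0052 for miR-10b (SE 0.028, adjusted p 0.94). The latter was -0.0114 with TMM scaling and -0.0156 with DESeq2, so that its direction is not determined. A second annotated gene on the same strand overlaps the exon of SOX11.

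The SOXE genes were present at low levels and did not pass with either vector. SOX9, on chr17:70117161-70122557 in GRCh37 (plus strand, 3 exons, transcript NM_000346), is a regulator of neural stem cells, glia and cartilage. It measured 55.9, 54.5 and 50.9 CPM in the miR-10a controls and 56.8, 56.4 and 55.0 CPM with doxycycline. In the miR-10b cultures it measured 50.8, 55.1 and 52.0 CPM without and 53.8, 58.3 and 57.5 CPM with doxycycline. Both pairs overlapped, and the log2 fold changes were 0.06 (SE 0.054, edgeR adjusted p 0.76) and 0.10 (SE 0.054, adjusted p 0.22).

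SOX8, on chr16:1031770-1036979 in GRCh37 (plus strand, 3 exons, transcript NM_014587), is expressed in oligodendrocyte precursors. It measured 25.8, 25.1 and 25.5 CPM in the miR-10a controls and 27.5, 29.1 and 26.5 CPM with doxycycline. All 3 doxycycline samples were above the controls, but the log2 fold change of 0.12 (SE 0.073, edgeR adjusted p 0.55) did not pass. In the miR-10b cultures it measured 17.9, 18.7 and 17.2 CPM without and 17.8, 20.1 and 16.7 CPM with doxycycline, which overlapped, with a log2 fold change of 0.02 (SE 0.083, edgeR adjusted p 0.93).

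Counted over the members, 9 of the 10 passed the filter of a mean above 10 counts and were tested. With miR-10a 0 of 9 passed the threshold in edgeR and in DESeq2, against 1.21% of all tested genes in edgeR. An unadjusted p under 0.05 in edgeR was found for 3 of 9. The share of all tested genes with such an unadjusted p was not taken, here or for the lists below. These counts therefore cannot be set against a background and only show that values lay near the threshold. With miR-10b 3 of 9 passed, against 15.3% of all tested genes: SOX3 and SOX4 were lower (background 7.15%) and SOX12 higher (background 8.18%). With TMM scaling or DESeq2 the 3 were SOX3, SOX4 and SOX21, all lower. Over all genes, 937 were higher and 819 lower with miR-10b under total-count scaling, 766 and 963 under TMM and 498 and 808 in DESeq2. In the average of both vectors 2 of 9 passed, against 13.9%, and these were SOX3 and SOX4 (-0.06, SE 0.020, edgeR adjusted p 0.040), both lower (background 6.22%). The SOX4 call did not pass in 8 of the 12 fits that left out 1 sample (highest edgeR adjusted p 0.12, with replicate 1 of the doxycycline samples of miR-10a left out). In the difference between the vectors 1 of 9 passed, SOX3, against 1.96%, and it was lower (background 1.38%).

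The samples of 3 of 9 members did not overlap between doxycycline and control with miR-10a, against 18.2% of all tested genes, and of 3 of 9 with miR-10b, against 28.7%. The smallest p that an exact permutation test of 3 against 3 samples can give is 0.1, and these members reached it. The members' median log2 fold change was -0.04 for miR-10a and -0.02 for miR-10b, beside 0.01 and 0.02 over all tested genes.

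**Figure D3:**
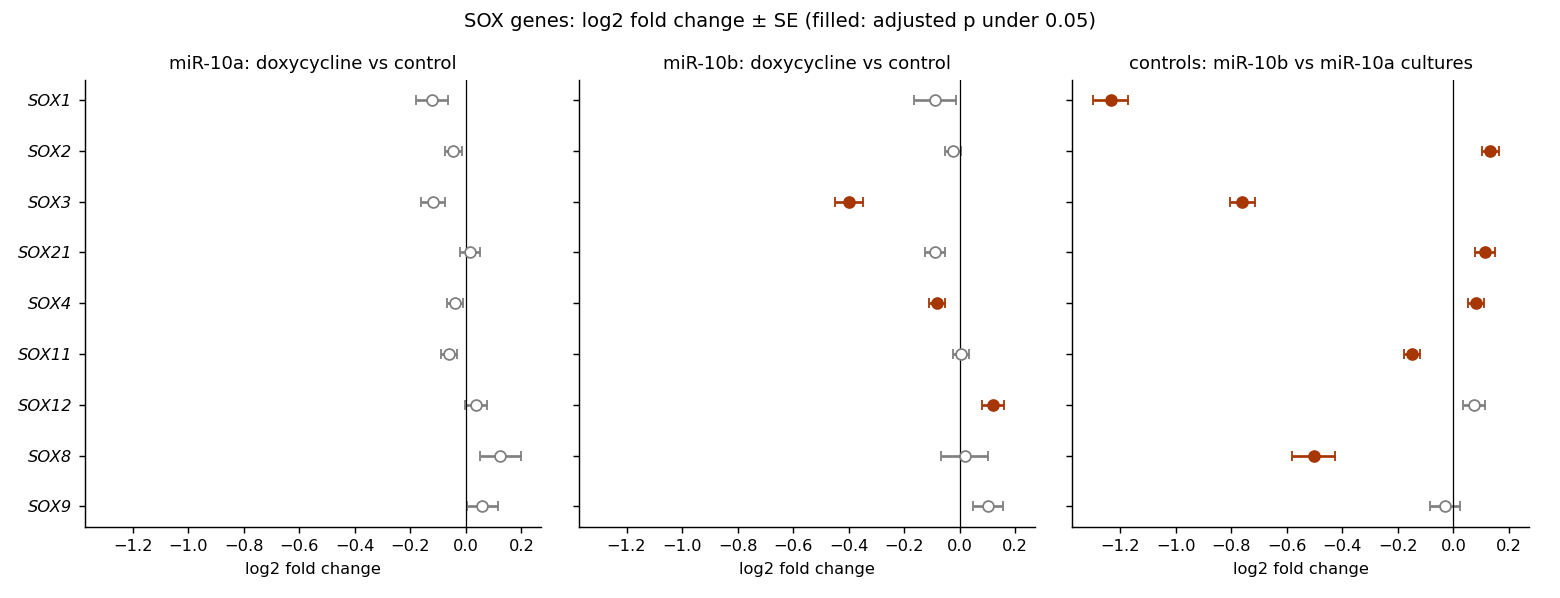
Log2 fold change of the 9 tested SOX genes with its standard error for doxycycline against control with each vector and for the uninduced miR-10b against the uninduced miR-10a cultures. Filled points passed an adjusted p of 0.05. The values with doxycycline lie between -0.40 for SOX3 with miR-10b and 0.12, while SOX1 reaches -1.23 between the uninduced cultures.

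The largest differences among the members were between the uninduced cultures of the vectors, in which vector and culture cannot be told apart. At low levels the precursors also differed, miR-10b minus miR-10a controls. The log2 fold change was -4.05 for MIR10A (SE 0.62, edgeR adjusted p 5.4e-06), which had 0 or 1 count in the miR-10b controls. It was 2.09 for MIR10B (SE 0.25, edgeR adjusted p 4.9e-08). Of the 9 members 7 differed, against 14.1% of all tested genes, and the same 7 did not overlap, against 30.1%. Of the 7, 4 were lower in the miR-10b cultures (background 6.72%) and 3 higher (background 7.41%). SOX1 was lower in the miR-10b than in the miR-10a controls, 22.2 ± 1.79 against 52.2 ± 1.82 CPM (SD, n = 3), with a log2 fold change of -1.23 (SE 0.063, edgeR adjusted p 1.5e-17). SOX3 was at 92.6 ± 7.88 against 156.6 ± 4.91 CPM, a log2 fold change of -0.76 (SE 0.046, edgeR adjusted p 1.0e-15). SOX8 was at 17.9 ± 0.771 against 25.4 ± 0.369 CPM, a log2 fold change of -0.50 (SE 0.077, edgeR adjusted p 5.4e-06). SOX11, the other member lower in the miR-10b controls, had a smaller log2 fold change of -0.15 (SE 0.028, edgeR adjusted p 1.6e-04).

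SOX2 was higher in the uninduced miR-10b cultures by a log2 fold change of 0.13 (SE 0.03, edgeR adjusted p 0.0017), opposite to the other SOXB1 genes. SOX21 was higher by 0.11 (SE 0.036, edgeR adjusted p 0.024) and SOX4 by 0.08 (SE 0.028, adjusted p 0.0497). SOX12 with 0.07 and SOX9 with -0.03 did not pass (edgeR adjusted p 0.25 and 0.80). When single samples were left out, SOX1, SOX2, SOX3, SOX8 and SOX11 passed in 12 of 12 fits, SOX21 in 8 and SOX4 in 2. SOX21 did not pass without replicate 1 or 2 of the miR-10a controls or without replicate 2 or 3 of the miR-10b controls (edgeR adjusted p 0.053 to 0.13), and SOX4 reached 0.24 without replicate 2 of the miR-10a controls. The SOXB1 sum was 513 ± 7.22 CPM per kilobase in the miR-10a and 516 ± 3.41 in the miR-10b controls, since SOX2 was higher where SOX1 and SOX3 were lower.

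Several sets of markers also differed between the uninduced cultures. Neural progenitor markers summed to 11523 to 11618 CPM in the miR-10a and to 12846 to 12971 CPM in the miR-10b controls, and 3 of the 6 tested were higher in the latter. Pluripotency markers, mostly DPPA4, summed to 141 to 150 and to 107 to 112 CPM, and 1 of the 2 tested was lower. The sums of neuron markers overlapped. Floor plate markers summed to 3682 to 3771 CPM in the miR-10a and to 5372 to 5432 CPM in the miR-10b controls, and 8 of 9 were higher in the latter, with a median log2 fold change of 0.54 beside -0.01 over all tested genes. Mesenchyme markers summed to 145 to 148 and to 350.1 to 369.9 CPM, and 4 of the 5 tested of 7 were higher. DCN and PRRX1 had mean counts of at most 3, but both have several transcripts and are undercounted, so that their levels are unknown. The part of any of these cell types in the lower SOX1, SOX3 and SOX8 was not tested.

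Beside the fall of SOX3 in the miR-10b cultures, the mesenchyme sum there was 350.1 to 369.9 CPM without and 291 to 313 CPM with doxycycline. The sum of neuron markers was 429 to 451 CPM without and 506 to 556 CPM with doxycycline. Most of the counted sum was MAP2, a microtubule protein of neurons, at 357 ± 12.1 and 434 ± 20.9 CPM. All neuron markers except NHLH1 and ISL1 have several transcripts and are undercounted. Their sum may thus be too low, and the true share of MAP2 in it is unknown. Of the 5 tested neuron markers 1, MAP2, was called higher in edgeR with miR-10b and 0 lower, and 0 passed with miR-10a. In the miR-10a cultures the mesenchyme sum was 145 to 148 CPM without and 145 to 165 CPM with doxycycline, and the neuron sum 432 to 449 and 463 to 466 CPM. The floor plate sum was higher with doxycycline for both vectors, 3886 to 3954 against 3682 to 3771 CPM with miR-10a and 5570.0 to 5721 against 5372 to 5432 CPM with miR-10b. Of the 5 tested mesenchyme markers 2 were lower with doxycycline in the miR-10b cultures, COL1A1 (log2 fold change -0.60, SE 0.064, edgeR adjusted p 1.0e-08) and COL3A1 (-0.21, SE 0.042, adjusted p 3.8e-04), the latter named after its values were seen. Of the floor plate markers SPON1, a secreted matrix protein, was higher on average with doxycycline (0.23, SE 0.021, edgeR adjusted p 1.9e-10). CORIN, a surface protease counted on 1 of its 3 transcripts, was lower on average (-0.53, SE 0.081, edgeR adjusted p 1.2e-05). CORIN went from 21.8 ± 1.16 to 12.8 ± 0.820 CPM with miR-10b and from 7.10 ± 0.846 to 5.88 ± 0.575 CPM with miR-10a. With miR-10a it passed in 0 of the 12 fits that left out 1 sample (edgeR adjusted p 0.34 to 0.76). SPON1 went from 802 ± 7.11 to 936 ± 10.9 CPM with miR-10a and from 1169 ± 30.6 to 1376 ± 35.0 CPM with miR-10b. Most of the rise of the floor plate sum was thus SPON1, the only 1 of the 9 markers called higher with each vector. The neural progenitor sum was 12846 to 12971 CPM without and 12349 to 12369 CPM with doxycycline in the miR-10b cultures, and 11523 to 11618 and 11171 to 11520.3 CPM in the miR-10a cultures. The part of these shifts in the SOX3 values was not tested.

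**Figure D4:**
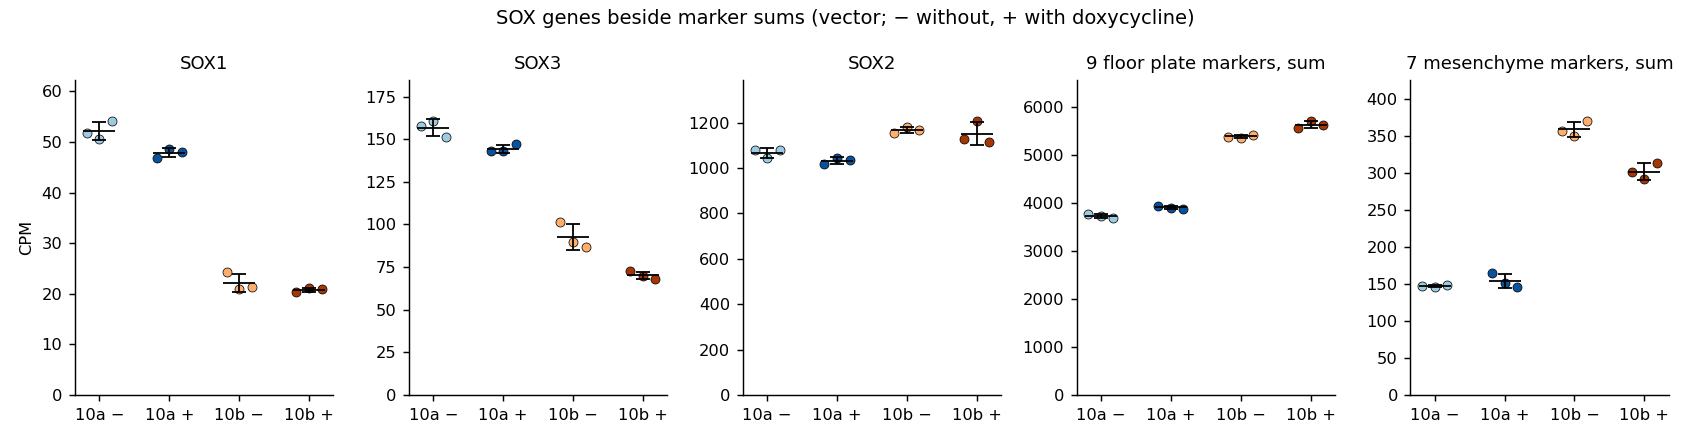
CPM of SOX1, SOX3 and SOX2 beside the summed CPM of the floor plate and mesenchyme markers in each of the 12 samples by group, with the mean of 3 as a line and its SD as a bar. The floor plate sum is 3682 to 3954 CPM in the 6 miR-10a samples and 5372 to 5721 CPM in the 6 miR-10b samples, and the mesenchyme sum is also higher with the miR-10b vector.

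Among the other 9 SOX family genes in the tables only SOX7, SOX13 and SOX15 passed the filter, and with doxycycline 0 of 3 passed with either vector or on average in edgeR or DESeq2, with 1 or 2 at an unadjusted p under 0.05 in edgeR. SOX13, a SOXD factor, was the only one called between the uninduced cultures, at 157 ± 5.64 CPM in the miR-10b and 191 ± 2.73 CPM in the miR-10a controls (log2 fold change -0.28, SE 0.036, edgeR adjusted p 2.9e-07), and is named here because its values were seen. SOX10, the neural crest SOXE factor, had 3 to 15 counts per sample, and SOX17, the endoderm factor, 0 or 1 count.

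Neural progenitor genes and partners of the SOXB1 proteins formed a list of 15, of which 13 were tested. With miR-10a 0 passed in edgeR and DESeq2, and 2 had an unadjusted p under 0.05 in edgeR. With miR-10b 6 were lower and 3 higher, against 7.15% and 8.18% of all tested genes, with a median log2 fold change of -0.0026 beside 0.02 over all of them. DESeq2 called 6 lower and 1 higher, without MSI1 and POU3F4, which are named after their values were seen. In the average of both vectors 4 were lower and 1 higher, against 6.22% and 7.67%. NOTCH1, the receptor that keeps progenitors cycling, was higher on average (0.13, SE 0.023, edgeR adjusted p 9.9e-05). NES was lower on average (-0.09, SE 0.019, edgeR adjusted p 7.9e-04), as were HES5, a Notch target (-0.14, SE 0.038, adjusted p 0.011), and CDH2, N-cadherin of the neuroepithelium (-0.06, SE 0.019, adjusted p 0.024). HES5 did not pass with replicate 3 of the doxycycline samples of miR-10a left out (adjusted p 0.058) or replicate 1 of the miR-10a controls (adjusted p 0.051). CDH2 did not pass with replicate 1 of the doxycycline samples of miR-10a left out (adjusted p 0.073), replicate 1 of the miR-10a controls (adjusted p 0.080) or replicate 2 of the miR-10b controls (adjusted p 0.068). Between the uninduced cultures 5 of the list were higher and 3 lower in the miR-10b cultures, against 7.41% and 6.72% of all tested genes.

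Early neuron genes, many of them bound or driven by SOXC proteins, formed a list of 16 with 11 tested, and none was lower in any comparison in edgeR. Many of the list, TUBB3, DCX and STMN1 among them, have several transcripts and are undercounted. With miR-10a 1 was higher, against 0.472% of all tested genes, with miR-10b 3, against 8.18%, and in the average of both vectors 4, against 7.67%, with a median of 0.15 beside 0.01 over all tested genes. INSM1, a zinc finger factor of newborn neurons, rose with both vectors, from 185 ± 4.55 to 226 ± 2.74 CPM with miR-10a and from 191 ± 9.33 to 242 ± 1.04 CPM with miR-10b, an average log2 fold change of 0.32 (SE 0.026, edgeR adjusted p 2.2e-11). MAP2, a microtubule protein of neurons counted on 1 of its 4 transcripts, rose on average by 0.18 (SE 0.025, edgeR adjusted p 1.9e-06). NEUROD1 rose on average by 0.20 (SE 0.043, adjusted p 0.0012) and NHLH1 by 0.15 (SE 0.039, adjusted p 0.0073), both bHLH factors of early neurons. These 4 passed on average in all 12 fits that left out 1 sample. Between the uninduced cultures 0 of the 11 passed in edgeR and DESeq2, and 1 had an unadjusted p under 0.05 in edgeR.

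Glial competence genes linked to SOXE proteins had 3 of 9 genes above the filter. With doxycycline 0 passed in edgeR or DESeq2 in any comparison, with 1 or 2 at an unadjusted p under 0.05 with a vector or on average. NFIX was at 0, and NFIA, NFIB, S100B and GFAP had mean counts of at most 3 in each group. All of these except S100B have several transcripts and are undercounted, so that their levels are unknown. Cartilage matrix targets of SOX9 had 5 of 9 above the filter, and with doxycycline 0 passed in edgeR or DESeq2, with 0 or 1 at an unadjusted p under 0.05. Between the uninduced cultures 1 gene of each list passed, PDGFRA (0.81, SE 0.097, edgeR adjusted p 4.9e-08) and COL2A1 (0.24, SE 0.054, adjusted p 0.0016), both higher with the miR-10b vector and named after their values were seen.

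For each tested member, the gene outside the list whose log2(CPM + 1) was most correlated with it over the 12 samples was sought among 7804 genes with a mean of at least 5 CPM. SOX1 was nearest to SP5, a target of WNT signalling, with a Pearson r of 0.995, and SP5 was at 55.2 and 48.1 CPM in the miR-10a control and doxycycline groups and at 19.5 and 16.7 CPM in the miR-10b ones. SOX3 was nearest to SLC2A1, a glucose transporter, with r 0.990, at 839.8, 762, 562 and 457 CPM in the same order. SOX8 was nearest to POU3F2, a POU factor of neural progenitors, with r 0.969, at 615, 616, 476 and 475 CPM. SOX2 was nearest to TPBG with r 0.962, SOX11 to ZGRF1 with 0.961, SOX12 to KDM6B with 0.951, SOX21 to HSP90B2P with 0.924 and SOX9 to PARS2 with 0.870. The 12 samples fall into cultures of 2 vectors, which the points of each correlation share, and the values are descriptions of likeness.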

How the data were processed

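RNA of 12 samples was sequenced, and the authors deposited raw counts per RefSeq transcript for each sample. The submitters' processing notes name STAR, Subread, featureCounts and hg19, without versions. The deposited length column, in bases, gave CPM per kilobase. Each table held 51799 rows, and 3698 repeated rows were dropped. Where a gene had several transcripts, that with the highest mean count was used. Reads shared by transcripts appear to be left out of the counts.

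The test was that of edgeR 4.0.16 under R 4.3.3 (quasi-likelihood, Benjamini-Hochberg over 11451 genes with a mean above 10 counts, threshold 0.05, total count as library size, 4 group means over 12 samples). The code was tested on simulated data. Alternatives were TMM, DESeq2 1.42.0, other filters, summed transcripts, a replicate block, fits of 6 samples and leaving out each sample. Seed matches, gene coordinates and exon numbers used GENCODE annotation on GRCh37. The span of a gene there can be longer than the counted RefSeq transcript, as for SOX1, SOX11 and SOX21. Samples were grouped by their labels, and same-numbered samples did not deviate together. The named genes are the 10 members, up to 4 genes a list past the threshold with both vectors or on average, and the most correlated gene of each member, which for SOX4 is not reported here. COL3A1, SOX13, PDGFRA, COL2A1, DPPA4, MSI1 and POU3F4 are named outside this rule, after their values were seen. The members and lists were chosen with earlier results of these data known. A floor of 3 counts corresponds to 0.212 to 0.284 CPM and covers counting error only.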

Additional observations from a re-analysis of the deposited data

Results flagged for a closer look

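The effect of doxycycline differed between the vectors, by an interaction test in edgeR, for the precursors and for 4 of the other genes looked up. Those looked up were the members, the genes named by the rule from the lists, and COL3A1. The most correlated gene of each member was not among them. The difference was taken as the miR-10b minus the miR-10a effect on the log2 scale. For MIR10A it was -9.36 (SE 2.03, edgeR adjusted p 0.0069) and for MIR10B 10.14 (SE 0.55, adjusted p 1.7e-15), each made from its own vector. For SOX3 it was -0.28 (SE 0.067, edgeR adjusted p 0.017), with lower values in 3 of 3 doxycycline samples than in the controls of each vector. For COL1A1, a collagen of mesenchyme, it was -0.65 (SE 0.10, adjusted p 9.7e-05). COL1A1 went from 102 ± 10.7 to 67.4 ± 7.37 CPM with miR-10b and from 45.6 ± 1.41 to 47.2 ± 3.83 CPM with miR-10a. For COL3A1, another collagen, the difference was -0.38 (SE 0.073, adjusted p 0.0018), with 135 ± 3.90 and 116.9 ± 3.14 CPM without and with doxycycline for miR-10b and 35.1 ± 2.04 and 39.4 ± 0.373 CPM for miR-10a. For MAP2 the difference was 0.21 (SE 0.050, adjusted p 0.020), with 357 ± 12.1 and 434 ± 20.9 CPM in the miR-10b cultures and 355 ± 11.4 and 375 ± 4.16 CPM in the miR-10a cultures. The MAP2 difference did not pass without replicate 1 or 2 of the miR-10a doxycycline group, replicate 2 of the miR-10a controls or replicate 1 of the miR-10b controls (edgeR adjusted p 0.052 to 0.096).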

How the results depend on the processing

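Of 297 values of the members under settings other than leaving out a sample, 283 kept their direction and their side of the threshold, 7 lost and 4 gained a call, and 3 changed sign: SOX11 with miR-10b under TMM (-0.0114) and DESeq2 (-0.0156), and SOX8 with miR-10b under DESeq2 (-0.0026). Of the 540 values without 1 sample, 491 kept both. Ranges that crossed 0 were -0.0018 to 0.0345 for SOX21 and -0.0100 to 0.10 for COL1A1 with miR-10a, -0.0082 to 0.0190 for SOX11 and -0.0584 to 0.0754 for SOX8 with miR-10b, and -0.0063 to 0.10 for SOX1 and -0.0147 to 0.0453 for SOX2 in the difference between vectors. Leaving out 1 sample, the members called were 0 with miR-10a in all fits, 1 to 3 with miR-10b, 1 to 3 on average, 0 to 1 in the difference and 5 to 7 between uninduced cultures. Only SOX3 passed with miR-10b in a fit of those 6 samples (1 member). Over all genes, calls with miR-10a went from 139 to 275 in a fit of 6 samples and lay between 75 and 268 without 1 sample, and those of the difference went from 224 to 343 without a filter on low counts and lay between 140 and 339 without 1 sample. The cause was not tested. With the replicate number as a block, 3 members passed on average, SOX12 joining with an edgeR adjusted p of 0.042. Without a filter on low counts the 2 members were SOX3 and SOX12 (adjusted p 0.018), and SOX4 did not pass (0.059). Same-numbered samples correlated between -0.03 and 0.0082 in their deviations from the group means, so that they share only a number. The counts of SOX14 limit it to detection.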
